A study of Mus musculus with 9 samples.

Results

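The genes described here are those with at least 1 FPKM in each of the 3 libraries of podocytes from mice given PBS, where FPKM is a count of sequenced fragments scaled to the length of the transcript and to the depth of the library. They were 8331 of the 23309 gene symbols in the table, a share of 35.7%, and are called members below. The mice were wildtype in genotype and 7 to 8 weeks old, and carried mTmG, a membrane reporter which turns from red to green fluorescence after Cre recombination, together with a Cre for podocytes. RNA came from the green cells, passed a check of its integrity, was depleted of ribosomal RNA with a Ribo-Zero Magnetic Gold kit and was sequenced on standard Illumina libraries. The PBS mice are the control group of a study of podocyte injury by ADR, and no ADR library enters any value below. Whether the 3 libraries came from separate animals is not stated, so the spread given below is the spread between these libraries and may be technical.

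Podocytes are the epithelial cells on the outer face of the glomerular capillary. Their interdigitating foot processes are held by an actin skeleton and are bridged by the slit diaphragm, a specialised junction built around proteins such as nephrin (Nphs1). Together with the endothelium they lay down the glomerular basement membrane, and they stay largely outside the cell cycle. The transcription factor WT1, named in the title of the study, is required for podocyte development and maintenance. In sorted cells, as in any bulk sample, fewer cells of a type and less RNA per cell cannot be told apart.

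Before the levels, the 3 libraries were compared with each other. Summed over symbols, replicates 1, 2 and 3 held 628616, 587778 and 571370.2 FPKM, and 9108, 9267 and 8988 symbols reached 1 FPKM in them. Relative depth, read from the steps between the lowest values, was 1.085, 1 and 1.082. The 8331 members correlated on the log2 scale with Pearson's r of 0.979 between replicates 1 and 2, 0.956 between replicates 2 and 3 and 0.925 between replicates 1 and 3, over genes, which are not independent replicates. Replicates 1 and 3 were the least alike pair. In replicate 3, 451 symbols at or above 1 FPKM in the other libraries were below it, against 346 for replicate 1 and 66 for replicate 2. The 451 had a median GC content of 70% in the first 300 transcript bases, against 61.3% for the members. Values are therefore given with each library shown.

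Most RNA came from a small share of the members. The median member had a mean of 11.5 FPKM, with quartiles of 4.09 and 38.1 FPKM, and 987 members reached a mean of 100 FPKM. The 91 members with a mean of at least 1000 FPKM made up 36.5%, 36.3% and 36.3% of the summed FPKM in replicates 1, 2 and 3. The 10 highest members held 8.78 ± 0.405% (SD, n = 3 libraries), the 100 highest 37.8 ± 0.273% and the 1000 highest 77.2 ± 0.528%. This concentration differed little between libraries, although the genes inside it moved, as the next values show. All further means are over the 3 libraries, with the SD after ±.

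**Figure D1:**
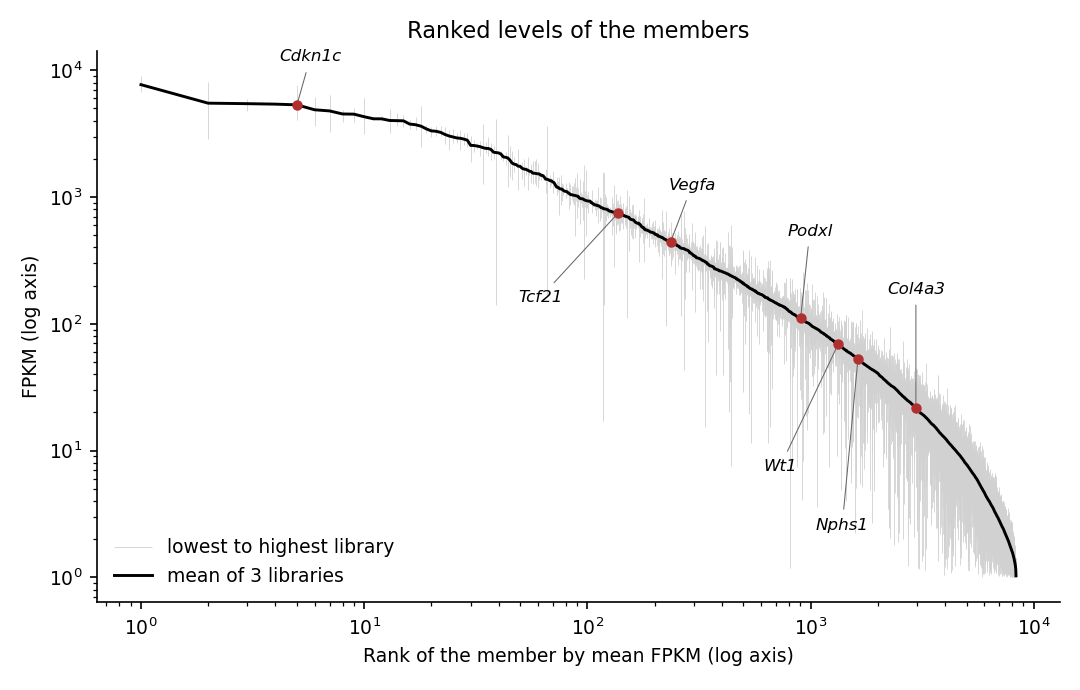
Mean FPKM of each member (black line, log axis) against its rank by that mean (log axis), with a grey line from the lowest to the highest library and 7 podocyte genes marked. Levels fall from 7699 FPKM for the first gene, Tmsb4x, to about the threshold of 1 FPKM, with a median of 11.5, and grey lines reach far below the mean for single genes at most ranks.

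Tmsb4x, which encodes thymosin beta 4, a protein that binds actin monomers, was first with 9039.6, 6775 and 7283 FPKM in replicates 1, 2 and 3, in which order values are given throughout. Nupr1, a stress-induced nuclear protein, followed with 8068, 5555 and 2879.8 FPKM, and its libraries differed 2.802-fold from highest to lowest. Cdkn1c, the cyclin-dependent kinase inhibitor p57 that marks mature podocytes, stood at rank 5 with 7645, 4029 and 4336 FPKM, high in replicate 1 and close in the other libraries.

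The annexins Anxa2 and Anxa1, which bind membranes in the presence of calcium, had 5901, 5674 and 4782 FPKM and 4867, 4781 and 3919 FPKM. Among the cytoskeletal genes, Actb (beta-actin) had 3236, 4678 and 6423 FPKM and Actg1 (gamma-actin) 2997, 3411 and 3568 FPKM, so that beta-actin was lowest and highest in the libraries where Cdkn1c was highest and near its lowest. Myl12a, Myl12b (regulatory light chains of non-muscle myosin), Pfn1 (profilin) and Gsn (gelsolin, which severs actin) had means of 3118 ± 496 FPKM, 2926 ± 266 FPKM, 2808 ± 355 FPKM and 4003 ± 553 FPKM. The respiratory chain genes Cox7c, Uqcr10, Atp5j and Ndufb4 ran from 3302 to 5405 FPKM in the mean. Cox7c was among the steadiest of the 30, with 5299, 5333 and 5584 FPKM.

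Secreted and matrix-associated products among the 30 were Cst3 (cystatin C), Sparc (a collagen-binding matrix protein), Cyr61 (a matricellular protein) and Plat (tissue plasminogen activator). Cst3 had 6120.04, 4855 and 3659.7 FPKM and Sparc had 3191, 3885 and 4976 FPKM, with opposite extremes in replicates 1 and 3. Plat had 3045, 3044 and 3627 FPKM. The iron storage gene Ftl1 had 5257, 3132 and 2473 FPKM and was the other gene of the 30, with Nupr1, whose libraries differed by more than 2-fold. Cd81 (a tetraspanin), Itm2b, Ndfip1 (an adaptor of ubiquitin ligases) and Gpx4 (a lipid peroxide reductase) had means of 4506 ± 560.1 FPKM, 4143 ± 129.8 FPKM, 3992 ± 439 FPKM and 3032 ± 597 FPKM. Malat1, a nuclear non-coding RNA, was at rank 16 with 4084, 3733 and 3471 FPKM. The remaining gene with no described role here, 1810037I17Rik, had 3202, 2581 and 2805 FPKM, and the immediate early genes Nr4a1, Junb and the NF-kappaB inhibitor gene Nfkbia are taken up below.

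**Figure D2:**
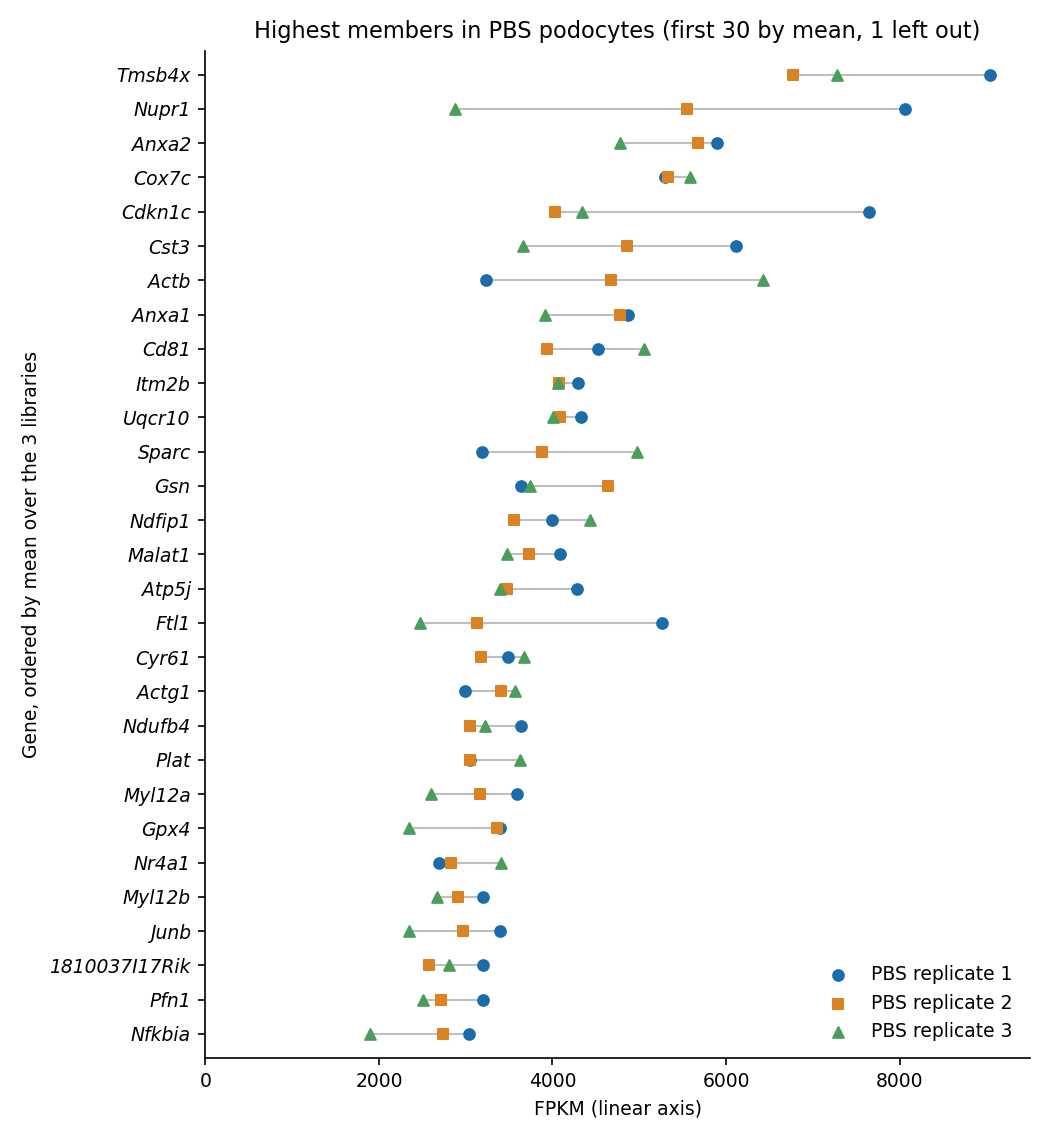
FPKM of the highest members (the first 30 by mean, with 1 left out) in each PBS library (linear axis; blue circles, replicate 1; orange squares, replicate 2; green triangles, replicate 3). Values run from 1892 FPKM for Nfkbia in replicate 3 to 9040 for Tmsb4x in replicate 1, and Nupr1 shows the widest span of those drawn.

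Nphs1, Podxl, Synpo and Wt1, which define the cell type, were all members, and 19 of 20 listed podocyte markers were, against 35.7% of all symbols. The exception was Lmx1b, a LIM homeodomain factor of podocytes, with 3.07, 2.64 and 0.729 FPKM: it was below the threshold in replicate 3. The median marker that was a member had a mean of 75.6 FPKM, against 11.5 for all members. Clic3 (an intracellular chloride channel protein) and Rhpn1 (rhophilin, a partner of small GTPases) had means of 1524 ± 344 FPKM and 1044 ± 156 FPKM. Tcf21 and Cdkn1c were also among the 5 highest of the marker list. The list was made from known podocyte genes in a study that sorted podocytes, so its presence is a check of the label and no finding.

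Of the slit diaphragm list 19 of 24 genes were members (79.2%, against 35.7% of all symbols). The median mean was 18.4 FPKM over the members and 7.98 FPKM over all 24 genes. The adaptor Nck2 had 138, 131 and 66.6 FPKM. Nphs1 itself stood at 39.6, 49.01 and 70.4 FPKM and at rank 1640, highest in replicate 3. Ptpro, a receptor tyrosine phosphatase of the foot process, had 64.3, 84.7 and 119 FPKM, also highest in replicate 3. Fyn, the kinase that phosphorylates nephrin, had 184, 101 and 19.8 FPKM, and the polarity gene Pard6b had 93.3, 68.8 and 10.7 FPKM. Both were lowest in replicate 3, and the first 300 bases of their transcripts held 75.7% and 79.7% GC. Cd2ap, which links the slit diaphragm to actin, was nearly equal in the libraries, with 35.1, 34.1 and 33.5 FPKM. Trpc6, Magi1 and Kirrel3 were below 1 FPKM in each library. Trpc6, a cation channel mutated in hereditary glomerulosclerosis, had 0.399, 0.125 and 0.105 FPKM.

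The 250 bases before the start of Nphs1 are shown because the gene defines the cell and because a TATAAA box, searched on both strands, was not in this window. TATAAA was found in 6.32% of the 6726 members with a RefSeq promoter window of this length (GRCm38.p6), in 16.4% of 9874 symbols below 1 FPKM in all 3 libraries and in 12% of all 17739 matched symbols. Windows of members also had more GC (median 60% against 51.2%) and a higher ratio of observed to expected CpG (median 0.753 against 0.298) than those of symbols below 1 FPKM. The window of Fos, an immediate early gene named after its values were seen, is shown for contrast: its TATAAA, in capitals, begins at position -33 from the start. The windows lie at chr7:30459808-30460057, plus strand for Nphs1, and at chr12:85473640-85473889, plus strand for Fos.
Nphs1: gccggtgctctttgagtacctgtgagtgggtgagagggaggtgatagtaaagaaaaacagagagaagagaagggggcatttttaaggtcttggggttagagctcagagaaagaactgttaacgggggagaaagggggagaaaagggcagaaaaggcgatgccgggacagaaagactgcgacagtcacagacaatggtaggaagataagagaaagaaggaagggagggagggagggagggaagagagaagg
Fos: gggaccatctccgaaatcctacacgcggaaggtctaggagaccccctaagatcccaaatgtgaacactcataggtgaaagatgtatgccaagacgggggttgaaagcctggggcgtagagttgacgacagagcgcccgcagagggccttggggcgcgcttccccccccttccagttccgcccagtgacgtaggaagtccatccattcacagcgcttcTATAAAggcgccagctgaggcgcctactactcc
A match of letters is a description of the window and does not show that a factor binds there.

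Genes of the actin skeleton of foot processes were members in 34 of 40 cases (85%, against 35.7% of all symbols). Those members had a median mean of 53.5 FPKM, and 13 were among the 1000 highest symbols. Below the actins and profilin came Rhpn1 and Arhgdia, an inhibitor of small GTPases with 398, 430.5 and 398 FPKM. Actn4, the actin crosslinker alpha-actinin 4, had 79.9, 83.001 and 99.1 FPKM, and Synpo, the podocyte actin-associated protein synaptopodin, had 52.2, 36.7 and 26.9 FPKM. Actn4 was thus steady while Synpo was 1.94-fold higher in replicate 1 than in replicate 3. Listed genes that were not members included Inf2, a formin, with 0.496, 0.514 and 0.439 FPKM, Enah with 0.557, 0.392 and 0.323 FPKM and Anln, the contractile-ring protein anillin, with 0.0676, 0.06003 and 0.0678 FPKM. Among other cytoskeletal genes, 15 of 18 were members, led by Vim (vimentin, the intermediate filament of podocytes) with 747, 641 and 632 FPKM.

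At the apical, urine-facing surface 14 of 16 genes were members (87.5%, against 35.7% of all symbols). The median mean was 197 FPKM over the members and 94.6 FPKM over all 16 genes. The scaffold Slc9a3r2, which ties podocalyxin to ezrin, had 2523, 1894 and 1448 FPKM. The ectopeptidase genes Dpp4 and Enpep (dipeptidyl peptidase 4 and aminopeptidase A) had 868, 1011 and 1258 FPKM and 467, 638 and 874 FPKM. Ezr (ezrin) had 505, 534 and 408 FPKM and Pdpn (podoplanin) 317, 301 and 351 FPKM. Podxl, the main sialylated protein of the surface coat, had 87.4, 109 and 135 FPKM, which was less than a member of its own complex, Slc9a3r2, in each library. Of the 14 members, 10 were highest in replicate 3, as were 45.5% of all members.

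Genes of the basement membrane showed the alpha 3, 4 and 5 chains of type IV collagen, which form the network of the mature glomerular membrane, and little of the alpha 1 and 2 chains. Col4a3 had 12.7, 21.1 and 30.9 FPKM, Col4a4 66.4, 98.4 and 141 FPKM and Col4a5 10.2, 19.1 and 33.1 FPKM. Col4a1 had 0.5502, 1.48 and 0.958 FPKM and Col4a2 0.247, 0.263 and 0.253 FPKM, so neither was a member. The 2 groups of chains did not overlap in any library. Lamb2, the laminin beta chain of the mature membrane, had 33.9, 45.6 and 50.2 FPKM, whereas Lamb1, the beta chain it replaces in development, had 0.0403, 0.0562 and 0.0692 FPKM. Npnt, the integrin ligand nephronectin, had 564, 689.9 and 904 FPKM. Of the list, 11 of 19 were members (57.9%, against 35.7% of all symbols). Of these 11, 10 were lowest in replicate 1 and 9 were highest in replicate 3, against 41.8% and 45.5% of all members. Their median transcript length was 6536 bases, against 2890 for all members, and replicate 1 was the library with lower values for long transcripts (values below), whose part in this order was not tested.

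Adhesion receptors were members in 18 of 23 cases (78.3%, against 35.7% of all symbols). Bcam, a laminin receptor, had 805, 1087 and 1311 FPKM, and the heparan sulfate proteoglycan gene Sdc4 had 228, 417 and 795 FPKM. Itga3, the alpha subunit of the main podocyte integrin, had 144, 174 and 208 FPKM. Its adaptor genes Ilk (integrin-linked kinase) and Cd151 (a tetraspanin) had 327, 255 and 217 FPKM and 247, 282 and 208 FPKM. Itgb5 stood out by its spread, with 772, 361 and 42.9 FPKM, and its first 300 bases held 76.7% GC. Itga8, an integrin of mesangial cells and the receptor of nephronectin, had 0, 0.0125 and 0.00577 FPKM.

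Of the transcription factors of the podocyte list, 18 of 29 were members (62.1%, against 35.7% of all symbols). The members had a median mean of 12.3 FPKM. Tcf21, a basic helix-loop-helix factor needed for glomerular development, had 670.3, 610.1 and 949.6 FPKM. Wt1 had 72.1, 74.3 and 59.9 FPKM. Both were members with the libraries within a factor of 2. Klf6, a Krüppel-like factor, was steadier than both, with 97.8, 102 and 95.4 FPKM. Klf15 and Foxc1 differed by more than a factor of 2. Klf15, a glucocorticoid-responsive Krüppel-like factor, had 72.6, 163 and 14.04 FPKM, and the forkhead gene Foxc1 had 69.3, 53.4 and 4.83 FPKM. Both were lowest in replicate 3, where the 3 listed genes Sox4, Lmx1b and Yap1 were under 1 FPKM, and Yap1, the effector of Hippo signalling, had 2.59, 1.87 and 0.304 FPKM.

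Secreted factors and receptors were less complete lists: 24 of 42 (57.1%) and 18 of 43 (41.9%) were members. The share of receptors was thus close to the 35.7% of all symbols. Vegfa, the growth factor by which podocytes maintain the glomerular endothelium, had 632, 405 and 285 FPKM at rank 236, highest in replicate 1. Ctgf, a matricellular relative of Cyr61, had 1197, 3069 and 1838 FPKM and was highest in replicate 2, while Cyr61 differed 1.16-fold. Htra1, a secreted serine protease, had 1013, 682 and 374 FPKM. Of the 24 secreted factors that were members, 13 differed by more than 2-fold between the libraries, against 17.6% of all members. Among receptors, F2r (the thrombin receptor PAR1) had 366, 550.1 and 563 FPKM, and P2rx4 (an ATP-gated channel) had 466, 361 and 496 FPKM. Pth1r, the parathyroid hormone receptor, had 629, 254 and 185 FPKM, and Axl, a receptor tyrosine kinase, had 115, 133 and 125 FPKM. The angiotensin receptor gene Agtr1a had 2.097, 0.987 and 1.18 FPKM and was not a member.

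Of 64 genes listed for hereditary nephrotic syndrome, 46 were members (71.9%, against 35.7% of all symbols). The median mean was 7.75 FPKM over all 64 genes and 21.4 FPKM over the members. Among their highest were Arhgdia (values above) and Tenc1, which encodes a tensin, with 169, 233 and 198 FPKM. The GTPase-activating gene Arhgap24 had 134, 129 and 181 FPKM. Non-members included Lmx1b, Itsn2 with 4.08, 2.27 and 0.995 FPKM and Nup205, a nuclear pore gene, with 0.617, 1.54 and 1.82 FPKM. This list shares genes with the slit diaphragm, actin and basement membrane lists and is no separate evidence beside them.

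**Figure D3:**
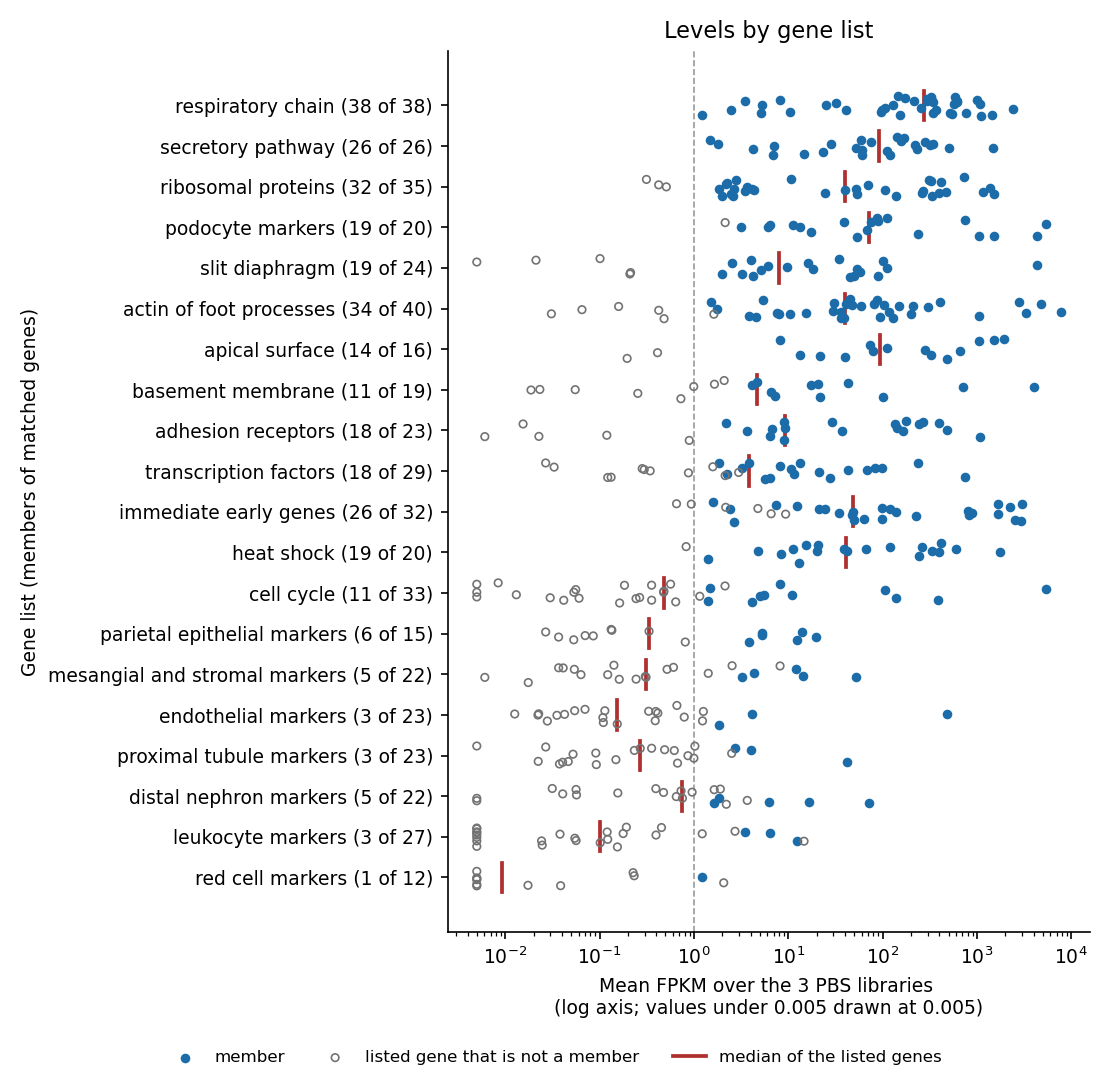
Mean FPKM over the 3 PBS libraries (log axis, values under 0.005 drawn at 0.005) of each gene in 20 lists; filled points are members, open points are not, red bars are medians of the listed genes and the dashed line is 1 FPKM. Podocyte lists lie mostly to the right of the line (19 of 20 podocyte markers), marker lists of other cell types mostly to its left (3 of 23 endothelial markers).

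All 38 listed respiratory chain genes were members, against 35.7% of all symbols. Their median mean was 274 FPKM, and 27 were among the 1000 highest symbols. Ndufb8, a subunit of complex I, had 2720.3, 2223 and 2318 FPKM, and Ndufa2 had 1523, 1442 and 1362 FPKM. None of the 38 differed by more than 2-fold between libraries, and their median ratio of highest to lowest was 1.24, against 1.39 for all members. Glycolysis genes were members in 19 of 26 cases (73.1%, against 35.7% of all symbols). Aldoa (aldolase) had 1822, 1726 and 1689.7 FPKM. Eno1 (enolase) had 1203, 944 and 926 FPKM and Pkm (pyruvate kinase) 789, 799 and 729.6 FPKM. Hk2, an inducible hexokinase, had 0.00604, 0.184 and 0.0909 FPKM and Pdk1 0.579, 0.698 and 0.913 FPKM. Fatty acid oxidation genes were members in 18 of 25 cases (72%, against the same 35.7%). Etfa, an electron transfer flavoprotein, led with 319, 279 and 262 FPKM, and Ppargc1a, a coactivator of mitochondrial genes, had 0.366, 0.378 and 0.421 FPKM.

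All 26 secretory pathway genes were members, and the share of all symbols to set beside the counts here is 35.7%. Hspa5, the main chaperone of the endoplasmic reticulum, had 1497, 1469 and 1482 FPKM. Lysosome and autophagy genes were members in 28 of 30 cases, led by Ctsd (cathepsin D) with 1075, 1275 and 1595 FPKM and Sqstm1 (p62) with 759, 744 and 498 FPKM. Proteasome and ubiquitin genes were members in 19 of 20 cases, led by Psma7, a core particle subunit, with 1182, 1089 and 1035 FPKM. Ribosomal protein genes were members in 32 of 35 cases but fell into separate levels: 15 of the 35 had a mean under 5 FPKM, and 20 were at 10 FPKM or more. Rpl19 and Rps15 had 1369, 1574 and 1615 FPKM and 1372, 1382 and 1352 FPKM, while Rpl30, Rpl22 and Rps27 were not members, and Rps27 had 0.307, 0.229 and 0.406 FPKM. The proteins are equal parts of the ribosome, so the files' estimates for this family are uncertain. The level of the 35 had a Spearman's rho of 0.03 over genes with the share of 31-base words that a transcript shares with another gene.

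Reference genes behaved unevenly. All 16 were members, against 35.7% of all symbols. None differed by more than 2-fold, yet Actb missed that limit narrowly, at 1.99-fold. Hprt had 146, 137 and 141 FPKM and Ywhaz 468, 470.3 and 441 FPKM. Gapdh, a glycolysis gene usually among the most abundant and named here after its values were seen, had only 2.53, 2.33 and 2.32 FPKM, and 84.1% of its words occur in another gene. Eef1a1, a translation elongation factor also named after its values were seen, had 32.9, 36.5 and 61.03 FPKM with 74.8% shared words. How the authors counted reads with several matches in the genome is not given here, and its part in these values was not tested.

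Immediate early genes, which cells switch on within minutes of a stimulus, were high in all 3 libraries. Of the list, 26 of 32 were members (81.25%, against 35.7% of all symbols), and 12 were among the 1000 highest symbols. The median mean was 98.6 FPKM over the 26 members and 48.9 FPKM over all listed genes, against 11.5 FPKM for all members. Nr4a1, an orphan nuclear receptor, had 2689, 2829 and 3410.4 FPKM, and Junb, a subunit of AP-1, had 3396, 2974 and 2349.5 FPKM. Dusp1, a MAP kinase phosphatase, had 2394, 2666 and 2521 FPKM, and Zfp36, which destabilises mRNAs, had 2219, 2327 and 2143 FPKM. These differed by less than 1.5-fold between libraries, as did Ier2 with 1397, 1766 and 1899 FPKM and Egr1, a zinc finger factor, with 1706, 1771 and 1485 FPKM. Of the 26 members 5 passed 2-fold (19.2%, against 17.6% of all members), among them Jund with 1589, 824 and 17.1 FPKM, and its first 300 bases held 76% GC. Of the 6 listed genes that were not members, Klf2, Ier5, Dusp5 and Myc were above 1 FPKM in replicates 1 and 2 and below it in replicate 3, with Klf2 at 16.2, 11.2 and 0.698 FPKM.

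Other lists of stress-related genes follow, and whether any such programme was active was not tested. Shares of members in the NF-kappaB and cytokine, p53 target and hypoxia lists were 50%, 75% and 75%, against 35.7% of all symbols. Of the NF-kappaB and cytokine list 13 of 26 were members, with Nfkbia at 3033, 2744 and 1892 FPKM and the interferon regulatory factor gene Irf1 at 638, 435 and 356 FPKM, while the cytokine genes Cxcl1 and Cxcl2 stayed under 1 FPKM in each library. Targets of p53 were members in 21 of 28 cases: Cdkn1a (the kinase inhibitor p21) had 292, 456 and 570.4 FPKM, Phlda3 had 266, 316 and 402 FPKM and Ccng1 (cyclin G1) had 150.3, 296 and 498 FPKM. Each of these named genes was lowest in replicate 1 and highest in replicate 3. Of the 21 members of this list, 12 were lowest in replicate 1, against 41.8% of all members. Highest in replicate 3 were 11 of them, against 45.5% of all members. Hypoxia targets were members in 18 of 24 cases, with P4ha2, a collagen prolyl hydroxylase, at 280.3, 299 and 275 FPKM, and Car9, a carbonic anhydrase widely used as a hypoxia marker, at 0.311, 0.476 and 0.293 FPKM.

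Cell cycle genes were members in 11 of 33 cases, a share of 33.3% and close to the 35.7% of all symbols. The members were led by the inhibitor Cdkn1c, Pcna (the sliding clamp of replication and repair) with 409, 410.4 and 334 FPKM, Ccnd3 (cyclin D3) with 114, 135 and 163 FPKM and Cdk4 with 105, 109 and 103 FPKM. Cdk1, the mitotic kinase, had 0.543, 0.865 and 0.291 FPKM, and the replication licensing genes Mcm2 and Mcm6 were below 1 FPKM in each library. Histone genes, which include variants made outside the cell cycle, were members in 20 of 25 cases (80%, against 35.7% of all symbols). The replacement histone genes H3f3a and H3f3b had 1504, 1631 and 1660.3 FPKM and 1432, 1653 and 1074 FPKM. The histone cluster gene Hist2h2ac had 863, 1118 and 1494 FPKM; near-identical copies make values of cluster genes uncertain.

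In 6 of 7 marker lists of other cells from 8.33% to 22.7% of the genes were members, beside 35.7% of all symbols. Of the endothelial markers 3 of 23 were members, and the defining genes Pecam1, Cdh5, Emcn and Kdr had means of 0.661, 0.0545, 0.332 and 0.389 FPKM. The list's sum of 491, 451 and 556 FPKM was mostly Cldn5, with 475, 439 and 548 FPKM. Cldn5, a claudin gene, is on the list but is not one of its defining genes. Of the mesangial and stromal markers 5 of 22 were members: Des (desmin) had 76.99, 57.1 and 22.3 FPKM, Pdgfrb (the PDGF receptor beta) had 4.82, 11.6 and 19.5 FPKM and Tagln (transgelin) had 33.2, 6.37 and 3.42 FPKM. Acta2, smooth muscle actin, had 19.6, 4.14 and 0.869 FPKM, so Des, Tagln and Acta2 were highest in replicate 1 and Pdgfrb in replicate 3.

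Of the proximal tubule markers 3 of 23 were members, with means from 2.75 to 41.9 FPKM. Their list summed to 52.96, 50.8 and 68.2 FPKM. The defining genes Slc34a1 and Lrp2 had 0.747, 0.5201 and 0.593 FPKM and 0.0168, 0.0365 and 0.0274 FPKM. Of the distal nephron markers 5 of 22 were, with Krt7 (keratin 7) at 57.3, 70.9 and 86.2 FPKM and Umod (uromodulin, made by the thick ascending limb) at 24.1, 22.8 and 2.57 FPKM. Slc12a1 and Aqp2, the other defining genes of that list, had 0.130003, 0.0392 and 0 FPKM and 2.09, 4.08 and 0.451 FPKM. Of the leukocyte markers 3 of 27 were members, with means from 3.47 to 12.5 FPKM, all 3 highest in replicate 1. The whole list summed to 90.5, 30.1 and 8.16 FPKM, also highest in replicate 1. Tyrobp, an adaptor of myeloid cells, had 42.7, 0.674 and 0.711 FPKM, while Ptprc and Cd3e had means of 0.0547 and 0 FPKM. Of the parietal epithelial markers 6 of 15 were members (40%, against 35.7% of all symbols), led by Aldh1a1 (a retinal dehydrogenase) with 16.9, 29.7 and 12.96 FPKM. Of the red cell markers 1 of 12 was, and the globin gene Hba-a2 had 0.803, 5.14 and 0.269 FPKM. Whether these transcripts came from other cells was not tested.

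Between the libraries the median member differed 1.39-fold from the highest to the lowest value, with quartiles of 1.21 and 1.74. In 1464 members, 17.6%, the ratio passed 2-fold, in 412 it passed 4-fold and in 101 it passed 10-fold. The share past 2-fold was highest among members with a mean of 2 to 5 FPKM (23.9%) and was 12.5% between 100 and 1000 FPKM. Taken by pairs, 631 members passed 2-fold between replicates 2 and 3, 346 between replicates 1 and 2 and 1315 between replicates 1 and 3. A ratio over 2 libraries is by construction no larger than over 3 for the same gene. Of the 1464, 837 were lowest in replicate 3, 558 in replicate 1 and 69 in replicate 2, and of the 101 past 10-fold, 98 were lowest in replicate 3.

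The most even members with a mean of at least 20 FPKM were Ddx1, an RNA helicase, with 123, 123 and 123 FPKM, and Mdh2, the mitochondrial malate dehydrogenase, with 526, 529.7 and 529.6 FPKM. Scfd1, Ncaph2, Atp5d, Mrps35, Zfp259, Uqcrc2, Sh3glb2 and Tbrg1 completed these 10, all within a ratio of 1.02. Atp5d and Uqcrc2 are subunits of the ATP synthase and of complex III, and had 1113, 1119 and 1107 FPKM and 171, 172 and 173 FPKM. The 12 least even were all lowest in replicate 3, and 10 of them were highest in replicate 1. Csda, a Y-box RNA-binding protein gene, had 228, 145 and 1.17 FPKM, and the signalling-linked RNA-binding gene Khdrbs3 had 93.98, 3.44 and 2.04 FPKM. Alyref, an mRNA export adaptor, had 166, 103 and 3.61 FPKM, Srsf2, a splicing factor, 170.1, 151 and 4.07 FPKM, and Mtch1, a mitochondrial carrier homologue, 592, 320.001 and 15.3 FPKM. Pla2g12a, Fam105b, Tmem243 and Akirin2 showed the same order, with ratios of 41.9, 34.8, 33.6 and 32.9. In the 10 highest in replicate 1 the first 300 bases held from 67% GC in Srsf2 to 83% in Khdrbs3. Mt2 and Serpina3n, highest in replicate 2, are described below.

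This order went with base composition at the start of the transcript. Of 97 members whose first 300 bases held at least 80% GC, 69.1% passed 2-fold. Against the mean of the other libraries, replicate 3 was at a median log2 of -1.09, replicate 1 at 0.65 and replicate 2 at 0.05. Between 70% and 80% GC, 31.7% of 1358 members passed 2-fold, with a median of -0.24 in replicate 3 and 0.17 in replicate 1. Below 70% the share was 13.5% to 15.9%, and the median of replicate 3 was 0.08 to 0.17. In all, 512 members were in replicate 3 under 50% of both other libraries, with a median GC of 71.7%. Replicate 1 also moved with transcript length. Its median log2 against the others was 0.20 for members under 1000 bases and -0.26 for those of 5000 to 8000 bases. Spearman's rho over 8289 members between length and the ratio of replicate 1 to replicate 2 was -0.35, and 0.01 for the ratio of replicate 2 to replicate 3. Reference transcripts were those of GRCm38, not the build named for the files, and the part of GC and length in the spread was not tested.

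**Figure D4:**
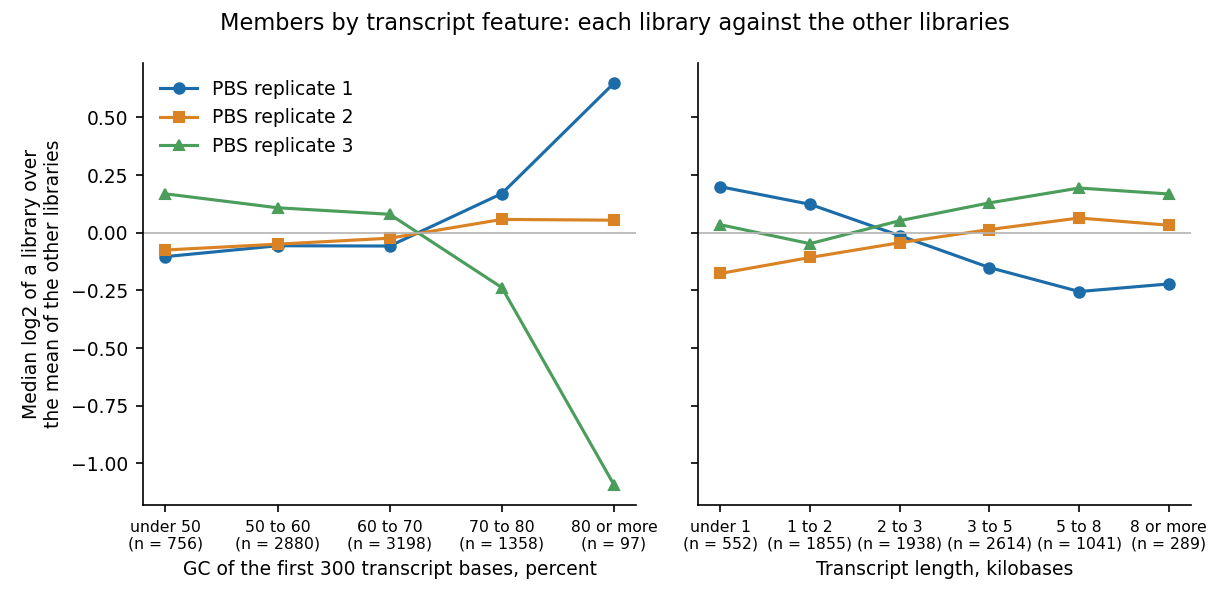
Median over members of the log2 of each library over the mean of the other libraries (axis in log2 units), by GC of the first 300 transcript bases in percent (left) and by transcript length in kilobases (right), with the number of members under each group. Replicate 3 falls to -1.09 and replicate 1 rises to 0.65 at 80% GC or more. By length, replicate 1 falls from 0.20 for the shortest to -0.26 for transcripts of 5 to 8 kilobases.

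Members of some lists differed between libraries. The glucocorticoid targets had a median GC of 62.0% in the first 300 bases, against 61.3% for all members, and the part of GC in their differences was not tested. Of the 13 glucocorticoid targets that were members, 11 passed 2-fold (84.6%, against 17.6% of all members), 11 were highest in replicate 2 (18.4% of all members were), and the median ratio was 4.91. The metallothionein genes Mt1 and Mt2, whose products bind zinc and copper, had 723, 1559 and 139.5 FPKM and 109, 603 and 7.4998 FPKM. Tsc22d3, the glucocorticoid-induced leucine zipper, had 124, 383 and 125 FPKM, and Sult1a1, a sulfotransferase, 56.2, 133 and 90.4 FPKM. Cebpd, a C/EBP factor, had 380.1, 432 and 71.3 FPKM and was low only in replicate 3. Fkbp5, a co-chaperone of the glucocorticoid receptor, had 9.37, 29.8 and 0.3702 FPKM and so was not a member. Dusp1 and Nfkbia, also on this list, did not pass 2-fold, with ratios of 1.11 and 1.603. Serpina3n, an acute-phase protease inhibitor, had 5.57, 73.1 and 2.02 FPKM, with the same order of libraries as Mt2.

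The promoters of the metallothionein pair are shown because these genes moved together. They lie at chr8:94172368-94172617, plus strand for Mt2 and chr8:94178839-94179088, plus strand for Mt1, so the starts are 6471 bases apart. Capitals mark TGCACNC or TGCGCNC, the core of the metal response element, on either strand: 1 match in the Mt1 window and 3 in the Mt2 window. Bases outside these windows were not searched, so the counts depend on the listed start and do not describe the whole promoters. Such a match was in 30.3% of member windows and in 24.5% of all windows.
Mt1: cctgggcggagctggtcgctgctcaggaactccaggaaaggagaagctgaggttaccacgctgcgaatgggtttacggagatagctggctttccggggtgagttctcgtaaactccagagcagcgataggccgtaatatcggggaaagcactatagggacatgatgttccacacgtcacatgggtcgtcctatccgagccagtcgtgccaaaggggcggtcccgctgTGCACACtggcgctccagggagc
Mt2: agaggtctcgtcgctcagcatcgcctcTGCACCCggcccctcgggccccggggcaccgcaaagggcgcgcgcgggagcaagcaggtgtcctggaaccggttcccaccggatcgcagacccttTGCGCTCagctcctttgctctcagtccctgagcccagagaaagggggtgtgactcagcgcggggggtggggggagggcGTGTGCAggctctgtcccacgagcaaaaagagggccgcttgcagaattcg
No glucocorticoid response element was searched.

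Class I genes of the major histocompatibility complex showed a large difference in replicate 2. H2-D1 had 319, 3659 and 164 FPKM, a ratio of 22.3. H2-K1 had 880.2, 806 and 543 FPKM and B2m, the light chain shared by class I molecules, 794, 629 and 562 FPKM, so the light chain and this other classical heavy chain were not highest there. H2-L and H2-Q4, named after their values were seen, had 688, 1627 and 494 FPKM and 44.3, 206 and 38.4 FPKM, also highest in replicate 2. These genes are polymorphic between strains and alike in sequence, with 27.7% of words in H2-D1 and 58.4% in H2-Q4 shared with another gene, and their values are uncertain. Of the interferon and MHC list 22 of 32 were members (68.75%, against 35.7% of all symbols). Of the 22, 16 were highest in replicate 1, against 36.1% of all members.

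Of 19 heat shock members 8 passed 2-fold (42.1%, against 17.6% of all members), 12 were lowest in replicate 1 and 14 highest in replicate 3, against 41.8% and 45.5% of all members. Hspa1a and Hspa1b, the inducible HSP70 genes, had 87.7, 250.3 and 446 FPKM and 115, 337 and 735 FPKM. Hspa8, the constitutive HSC70, had 1132, 1751 and 2372 FPKM, and Hsp90ab1 had 292, 403 and 539.5 FPKM. The small heat shock genes Cryab and Hspb8 had 712, 482 and 626 FPKM and 287, 307 and 409 FPKM and did not pass 2-fold. The median GC of the first 300 bases of this list was 64.3%, against 61.3% for all members.

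The windows before Hspa1a and Hspa1b are shown because the pair moved together and is nearly the same in sequence, with 247 of 250 bases equal. They lie at chr17:34972157-34972406, minus strand and at chr17:34959239-34959488, minus strand. Capitals mark GAANNTTC, a facing pair of heat shock factor units, which was in 5 of 14 heat shock promoters, in 5.07% of member windows and in 6.11% of all windows.
Hspa1a: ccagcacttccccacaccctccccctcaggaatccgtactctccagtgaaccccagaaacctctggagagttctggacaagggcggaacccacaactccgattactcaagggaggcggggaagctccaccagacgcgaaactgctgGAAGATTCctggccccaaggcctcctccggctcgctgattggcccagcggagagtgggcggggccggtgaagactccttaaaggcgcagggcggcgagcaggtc
Hspa1b: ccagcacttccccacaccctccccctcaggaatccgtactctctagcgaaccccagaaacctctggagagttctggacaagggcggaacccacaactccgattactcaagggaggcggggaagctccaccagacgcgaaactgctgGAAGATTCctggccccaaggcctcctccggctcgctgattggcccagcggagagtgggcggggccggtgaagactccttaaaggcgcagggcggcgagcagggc
Over whole transcripts 70.1% and 68.2% of their words occur in another gene, so the split of reads between them is uncertain.

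Of the clock genes 8 of 12 members passed 2-fold (66.7%, against 17.6% of all members). Bhlhe40, a repressor in the clock, had 274, 135 and 58.9 FPKM, and the nuclear receptor gene Rora had 155, 139 and 124 FPKM. Cry2 had 31.2, 24.7 and 12.9 FPKM, Tef 30.1, 19.3 and 9.16 FPKM and Csnk1e, a kinase of the period proteins, 32.5, 21.99 and 3.901 FPKM. These were highest in replicate 1, and 9 of the 12 members were lowest in replicate 3, against 32.8% of all members. Dbp, an output factor of the clock, was no member, with 10.2, 1.89 and 0.524 FPKM. The hour at which cells were taken is not stated.

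**Figure D5:**
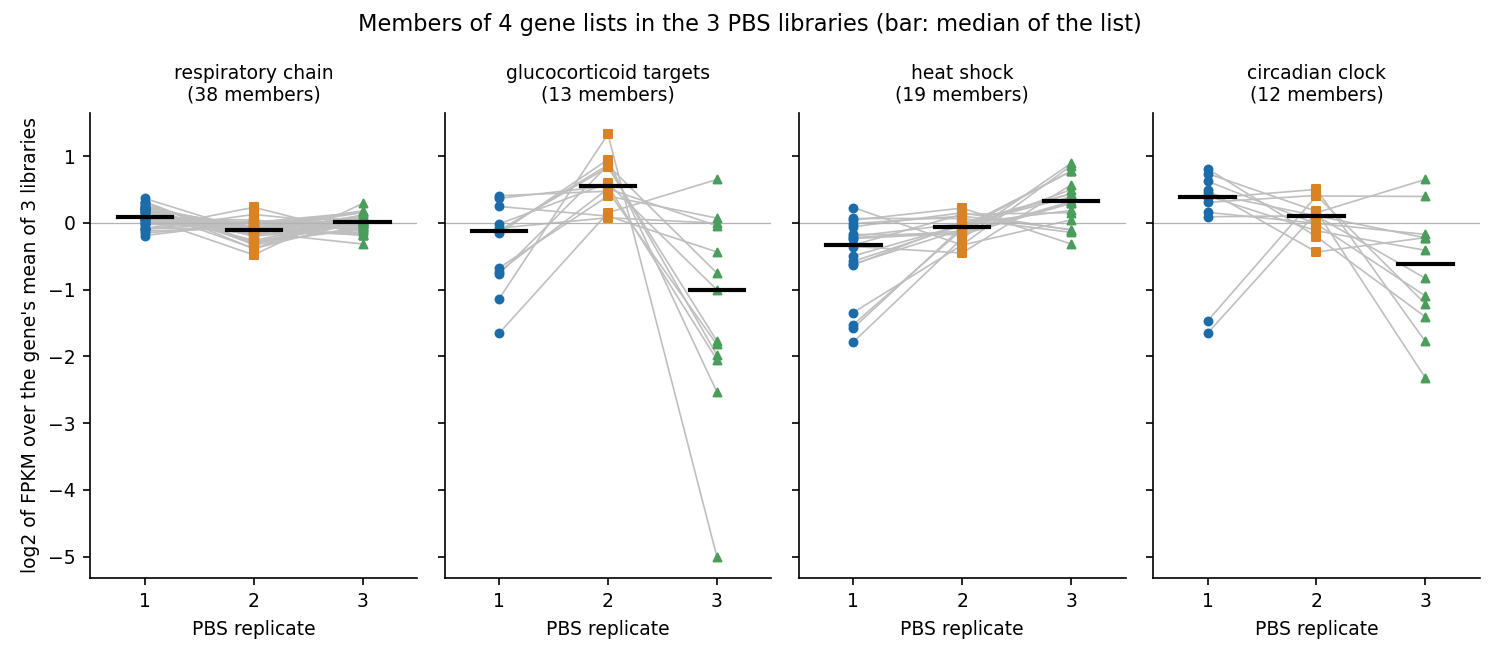
Log2 of FPKM over each gene's mean of the 3 PBS libraries, by replicate, for members of 4 lists; grey lines join the values of 1 gene and black bars are list medians. Respiratory chain genes stay near 0, 11 of 13 glucocorticoid targets are highest in replicate 2, 14 of 19 heat shock genes are highest in replicate 3 and 9 of 12 clock genes are lowest there.

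The threshold itself divides near-equal values. Just inside it were Lgalsl with 1.0001, 1.04 and 1.31 FPKM, Acvr1 with 1.98, 1.45 and 1.0004 FPKM and Mlycd with 8.98, 5.18 and 1.001 FPKM. Just outside were Thnsl1 with 1.01, 0.9996 and 1.14 FPKM and Ldlrad4 with 2.06, 2.14 and 0.998 FPKM. Of the symbols outside, 863 reached 1 FPKM in 2 libraries, 644 in 1 and 13471 in none, of which 5480 were at 0 in all 3.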

How the data were processed

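RNA was measured in 3 libraries of podocytes from PBS mice. Per the submitters' processing notes, which give no roles, the tools were Bowtie 0.12.7 and Cufflinks and the build was mm9. Not given in the sources used here are the Cufflinks version, the gene annotation, whether strand was used, and how multi-mapping reads were counted. The authors deposited FPKM per gene, and all values are used as deposited.

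The table had 23813 rows. For the 260 symbols on several rows, only the highest-mean row entered. Members had at least 1 FPKM in all 3 PBS columns, which their headers match to the PBS replicates. Read counts were not used here, so no counting interval is given. Relative depth is the most frequent ratio between libraries over 2568 symbols under 0.3 FPKM.

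Spread is the highest over the lowest library, and no test was made because 1 group is described. Transcript features came from GENCODE transcripts on GRCm38 for 99.5% of members, and promoter windows from RefSeq (GRCm38.p6), taking the first listed window of a symbol. Neither is mm9, so no mm9 coordinate is given. Steps were tested on simulated data. Python 3.11.15 with pandas 2.3.3 and numpy 2.4.6 was used.

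The members and gene lists were chosen with earlier results of these data known. Named are the 30 highest members, up to 6 highest members and up to 3 non-members of each list, the 12 least and 10 most even members with a mean of at least 20 FPKM, the genes at the threshold and 14 fixed podocyte and control genes, of which some are not reported here. Fos, Gapdh, Eef1a1, H2-L, H2-Q4 and the genes of the closing observations are named outside that rule, after their values were seen. Outside the rule too are Sult1a1 and the non-members beyond 3 in the immediate early and endothelial lists. Alternatives were other thresholds, row choices, scalings and pseudocounts, and leaving out each library.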

Additional observations from a re-analysis of the deposited data

How the results depend on the processing

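The number of members was 8331, and it lay between 6987 and 9546 for thresholds of 2 and 0.5 FPKM, for a rule of 2 libraries in 3, for the mean, for summed rows and for a common total. A threshold of 5 FPKM left 5239, by construction, and leaving out 1 library gave 8397 to 8782. The share of summed FPKM in the 100 highest members was 37.8% and stayed between 37.7% and 38.1% under its alternatives, 37.8% to 38.1% with 1 library left out. The median ratio of highest to lowest library, 1.39, was 1.33 for FPKM + 1. It was 1.198 to 1.2995 over 2 libraries, with members taken anew over those libraries. Members past 2-fold numbered 1464, against 965 among those with a mean of at least 5 FPKM. They numbered 955 among those with under 70% GC in the first 300 bases (an alternative chosen after seeing the data). With 1 library left out and members again taken anew, 421 to 1316 passed 2-fold. The lowest count was without replicate 3, where fewer libraries alone also lower a ratio. Of the 14 fixed genes 7 were among the first 1000 symbols, and 6 to 7 with 1 library left out. No list's count of members moved by more than 1.5 times when 1 library was left out, and 14 of 40 did at a threshold of 5 FPKM. At thresholds of 0.5 and 2 FPKM 3 and 4 lists did, all of them marker lists of other cells. Endothelial members numbered 5 and 1 at these thresholds, against 3. Distal nephron members numbered 8 and 2, against 5, and proximal tubule members 6 and 3, against 3. No paired analysis was possible because the values come from no test and only 1 group is described. Depth is known only relative to replicate 2, so precision at low FPKM cannot be given.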

Other observations

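Of 32 genes listed for neurons 13 were members, 40.6% against 35.7% of all symbols. Nell2, a secreted ligand, had 188, 231 and 281 FPKM, Vamp2, a vesicle fusion protein, 130.1, 142 and 129 FPKM, and Dpysl2, a regulator of microtubules in growth cones, 36.5, 91.9 and 186 FPKM. The synaptic vesicle gene Syp had 0.774, 0.8402 and 0.706 FPKM and was not a member. The guidance receptor Robo2 had 44.7, 79.99 and 111 FPKM, and 9 of the 13 members were highest in replicate 3, against 45.5% of all members. Uchl1, a ubiquitin hydrolase of neurons, was lowest there instead, with 41.4, 42.3 and 3.65 FPKM, and its first 300 bases held 61% GC.

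Families were grouped by symbol after values were seen, and their counts stand beside the 35.7% of all symbols that were members. In families of basic functions, 36 of 37 Nduf genes and 17 of 17 Atp5 genes were members. So were 66 of 76 mitochondrial ribosomal protein genes and 43 of 49 proteasome genes. Of 1117 olfactory receptor symbols 1 was a member, of 330 vomeronasal receptor symbols 2 were, and of 95 Kcn potassium channel genes 2 were, led by Kcnk1 with 10.6, 14.7 and 19.4 FPKM. By RefSeq biotype, 8080 of 20358 protein-coding symbols (39.7%) and 152 of 1708 long non-coding symbols (8.90%) were members. Translation factors were members in 17 of 18 cases (94.4%). Listed non-coding RNAs were in 9 of 26 (34.6%), close to the 35.7% of all symbols. The Y-linked genes Eif2s3y, Ddx3y and Uty were members, with Eif2s3y at 43.7, 34.3 and 31.6 FPKM, and Xist had 0.0718, 0.0751 and 0.139 FPKM.

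Of 737 symbols of small RNAs and their host genes 19 were members, and some values moved in steps. Mir3109 had 107, 116 and 215 FPKM, which times the relative depth of each library is 116, 116 and 232. Mir3061 had 30.03, 32.6 and 30.1 FPKM, or 32.6, 32.6 and 32.6 after the same product. Mir1901 had 4152, 2443 and 141 FPKM, and Snora31 had 306, 762 and 795 FPKM.

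Among symbols that were not members, Smyd1, a muscle methyltransferase, had the highest mean outside the small RNAs, with 0.566, 72.8 and 111 FPKM. It was under the threshold in replicate 1 alone. Snord100 was listed at 0 in replicate 3 and had the highest mean of all non-members, 311 FPKM.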
